A study of Mus musculus with 5 samples.

Results

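Imprinted genes are genes of which mainly the copy from the father or mainly the copy from the mother is transcribed. A list of 37 known mouse imprinted genes was matched by symbol to 19699 entries of a table of RNA levels, and 36 were found (20 paternally expressed, 15 maternally expressed, and Gnas, which makes transcripts from either copy). The remaining symbol, Rtl1, was not analysed here. The samples were the main airway section of mouse embryos at stage E13.5, with trachea and lung. There were 2 mutant libraries, labelled Prmt5 knockdown and described in the design text as an epithelial knockout that also names Shh in the genotype, and 3 control libraries, labelled WT and described as litter controls, and the mice were C57. The labels name no Cre driver, give no number of embryos per library and do not say whether the controls carried an allele of Shh or Prmt5. An effect of Shh in the mutant genotype therefore cannot be told apart from that of the loss of Prmt5. Levels are in FPKM, fragments scaled by gene length and by the reads of the library, so genes of different length can be set side by side. The mutants were sequenced to 15756526 and 15652503 reads, and the controls to 18682463, 16305922 and 18219269 reads, each in replicate order.

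Imprinting is set in the germ line by DNA methylation at control regions, and it is kept in the embryo by proteins that protect those methylated copies. Many imprinted genes lie in clusters that hold paternally and maternally expressed neighbours under 1 control region. As a group they are known for growth control and are abundant in embryonic mesoderm, where Igf2 promotes growth and H19, Igf2r, Grb10 and Cdkn1c restrain it. Prmt5 is an enzyme that methylates arginines in histones and in Sm proteins of the spliceosome. The paternal and maternal classes used here are textbook ones. FPKM values hold no allele information, so they give the total RNA of both copies and do not measure imprinting itself.

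The control regions carry a 6-base motif, TGCCGC, that the protector protein ZFP57 binds when it is methylated. The motif was searched on both strands (TGCCGC or GCGGCA) in RefSeq promoter windows of 300 bases, 250 before and 50 after a gene start, GRCm38.p6. Windows were found for 32 members, in all 47 windows, and 11 windows of 10 members held the motif (23.4%), against 11.6% of 32851 windows of all genes. The members' windows were also richer in CpG, with a median of 13 per window against 7. Among windows with at least 10 CpG the motif was in 10 of 31 for the members (32.3%) and in 22.5% of 14281 for all genes. The Mest windows with the motif overlap and hold the same 2 motif places, and both of these counts include each such window. The windows are promoters and were not matched to control regions. A match is a run of letters and says nothing on binding or methylation in this tissue. The windows below are shown because they belong to members that were lower in the mutants at an unadjusted p under 0.05 and hold the motif, which is in capitals, and they were picked after the values were seen.
Snrpn, chr7:60005150-60005449, minus strand: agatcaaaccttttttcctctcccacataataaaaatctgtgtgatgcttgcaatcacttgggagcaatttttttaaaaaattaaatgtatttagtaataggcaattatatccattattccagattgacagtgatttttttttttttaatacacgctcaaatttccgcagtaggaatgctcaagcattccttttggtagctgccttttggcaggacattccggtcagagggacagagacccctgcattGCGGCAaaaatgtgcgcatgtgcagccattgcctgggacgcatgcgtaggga
Nnat, chr2:157559828-157560127, plus strand: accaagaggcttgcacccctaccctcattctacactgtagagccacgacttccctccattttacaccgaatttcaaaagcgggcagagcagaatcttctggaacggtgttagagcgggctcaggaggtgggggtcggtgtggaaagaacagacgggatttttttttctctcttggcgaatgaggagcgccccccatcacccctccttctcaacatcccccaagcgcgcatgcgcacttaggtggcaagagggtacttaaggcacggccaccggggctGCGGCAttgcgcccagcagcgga
Igf2, chr7:142661222-142661521, minus strand: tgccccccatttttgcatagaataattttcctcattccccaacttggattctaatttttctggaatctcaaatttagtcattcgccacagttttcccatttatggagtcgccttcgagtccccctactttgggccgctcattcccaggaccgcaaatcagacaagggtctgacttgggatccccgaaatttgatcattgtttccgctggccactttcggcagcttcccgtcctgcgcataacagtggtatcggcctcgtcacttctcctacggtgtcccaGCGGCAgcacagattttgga
Mest, chr6:30737800-30738099, plus strand: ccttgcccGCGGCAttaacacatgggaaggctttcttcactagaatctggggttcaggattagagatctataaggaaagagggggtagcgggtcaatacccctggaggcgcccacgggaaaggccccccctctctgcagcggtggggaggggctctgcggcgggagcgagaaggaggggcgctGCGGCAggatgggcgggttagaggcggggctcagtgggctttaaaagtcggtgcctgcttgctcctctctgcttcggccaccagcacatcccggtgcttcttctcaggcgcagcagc
Copg2, chr6:30896745-30897044, minus strand: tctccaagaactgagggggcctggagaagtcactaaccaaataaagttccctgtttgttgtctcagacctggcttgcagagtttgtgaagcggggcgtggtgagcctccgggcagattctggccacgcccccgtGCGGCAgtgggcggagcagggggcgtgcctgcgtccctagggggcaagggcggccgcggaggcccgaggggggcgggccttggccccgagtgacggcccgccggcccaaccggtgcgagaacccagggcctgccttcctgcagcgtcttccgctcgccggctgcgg
Mest held the motif at 2 places and the other windows shown at 1. Nap1l5, Zim1, Plagl1, Grb10 and Meg3 also had windows with the motif and did not reach an unadjusted p under 0.05 with limma. Magel2, Slc22a18 and Ppp1r9a were lower at that p and had windows without the motif. Members with no window in the table were H19, Impact, Peg10 and Sgce.

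H19, a maternally expressed RNA that codes for no protein, was far the most abundant member in every library, and the other members spanned a wide range below it. H19 was 7th of all entries by mean FPKM, at a mean of 2021 FPKM over the 5 libraries. Mest, Dlk1, Grb10, Nnat and Cd81 followed, with means of 249.6, 237, 201, 155 and 112 FPKM. Of these neighbours in the order, H19 stood above Mest in range, neighbours among Mest, Dlk1, Grb10, Nnat and Cd81 overlapped in their ranges over libraries, and Cd81 stood above Plagl1. Plagl1, Igf2, Igf2r and Peg3 lay close together at means of 76.8, 69.0, 65.9 and 64.6 FPKM, and their ranges overlapped. Igf2 shares 64.5% of its exon bases with other annotated genes, so its place in this order depends on how such reads were counted. At the low end were Usp29, Kcnq1ot1 and Ascl2, with means of 1.36, 0.846 and 0.39 FPKM. At its low FPKM, Kcnq1ot1 still drew 1995 reads from mutant and 4043 from control libraries, over an entry of 84395 bases. Kcnq1ot1 and Ascl2 missed the filter of 1 FPKM in at least 2 libraries and were not tested. Each of the 34 members tested reached 1 FPKM in at least 1 mutant and 1 control library.

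**Figure D1:**
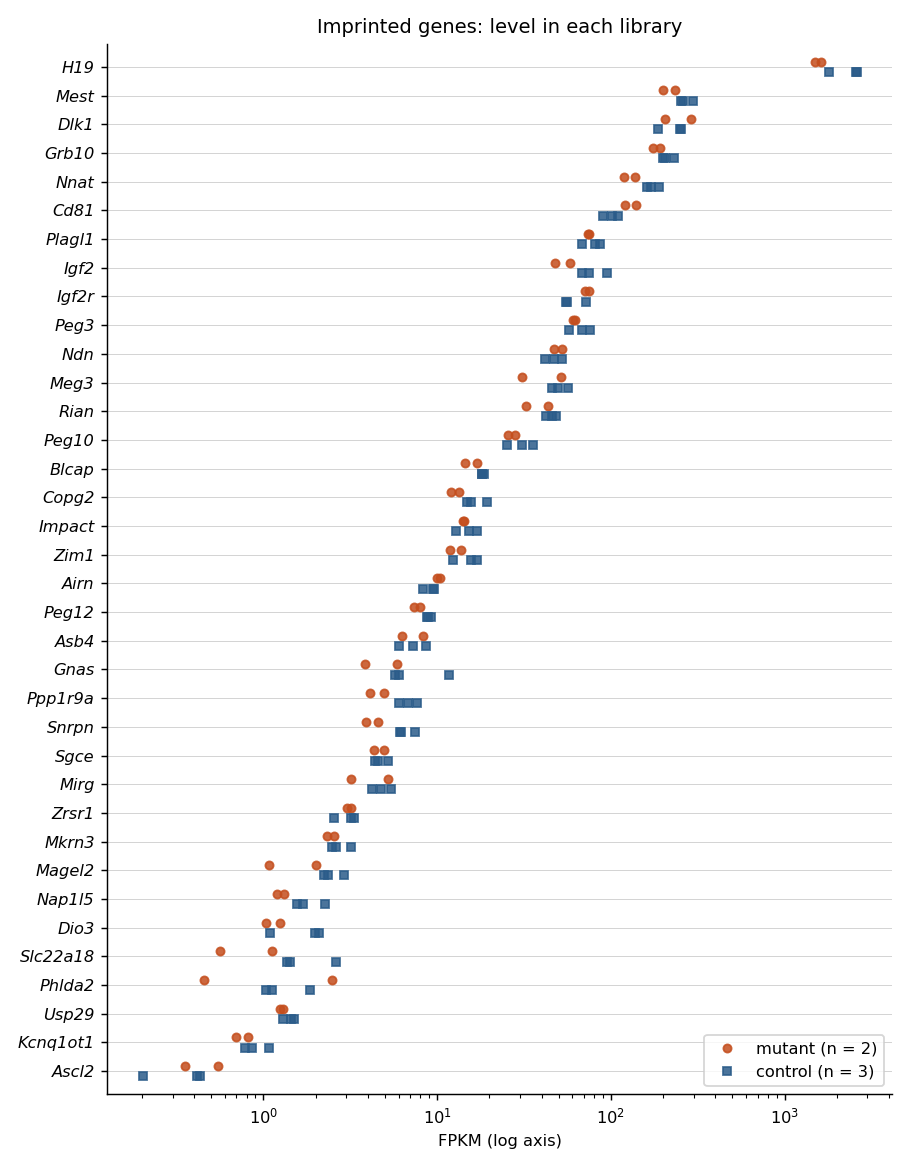
Level of each of the 36 imprinted genes in each library, in FPKM on a log axis, ordered by mean level. Circles are the 2 mutant libraries and squares the 3 control libraries. H19 stands apart at 1493 to 2604 FPKM, and for most genes the mutant points lie on or a little left of the control points.

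Mutants and controls were close for most imprinted genes, and where they differed the mutants were more often the lower ones. Of the 34 members tested, 0 passed an adjusted p of 0.05 with limma over all genes, where 303 of 12838 genes passed (2.36%), 0.989% higher and 1.37% lower. The smallest adjusted p of a member was 0.0899, that of Snrpn. At an unadjusted p under 0.05, 9 members were lower and 1 was higher, where 12.3% of all genes were lower and 6.53% higher, and these 10 members are 29.4% of those tested against 18.9% of all genes. The count was 3 without mutant replicate 2, 4 with the male share of the libraries in the fit, 6 with no filter or with median ratio scaling and 0 with TPM. With voom on the recovered reads, 8 members reached an unadjusted p under 0.05 and 0 passed the adjusted threshold, which 3.82% of all genes passed. The mutants lay below all controls for 13 members and above them for 2, Cd81 and Airn (38.2% and 5.88% of the members), where this held for 24.4% and 13.2% of all genes (37.6% in either direction). The sign of the log2 change was negative for 28 of 34 members (82.4%), against 61.1% of all genes. The median log2 change of the members was -0.20, against -0.06 over all genes. Differences were small: the 95% interval lay within a log2 change of 1 either way for 31 of 34 members, the exceptions being H19, Slc22a18 and Gnas. Every log2 change was computed from log2(FPKM + 1), a scale that shrinks differences of weakly expressed genes. With 2 against 3 libraries a test of single values cannot go below an exact p of 0.1, and the labels do not say that libraries came from separate embryos, so the p-values cover the spread among these libraries alone, which may be technical.

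**Figure D2:**
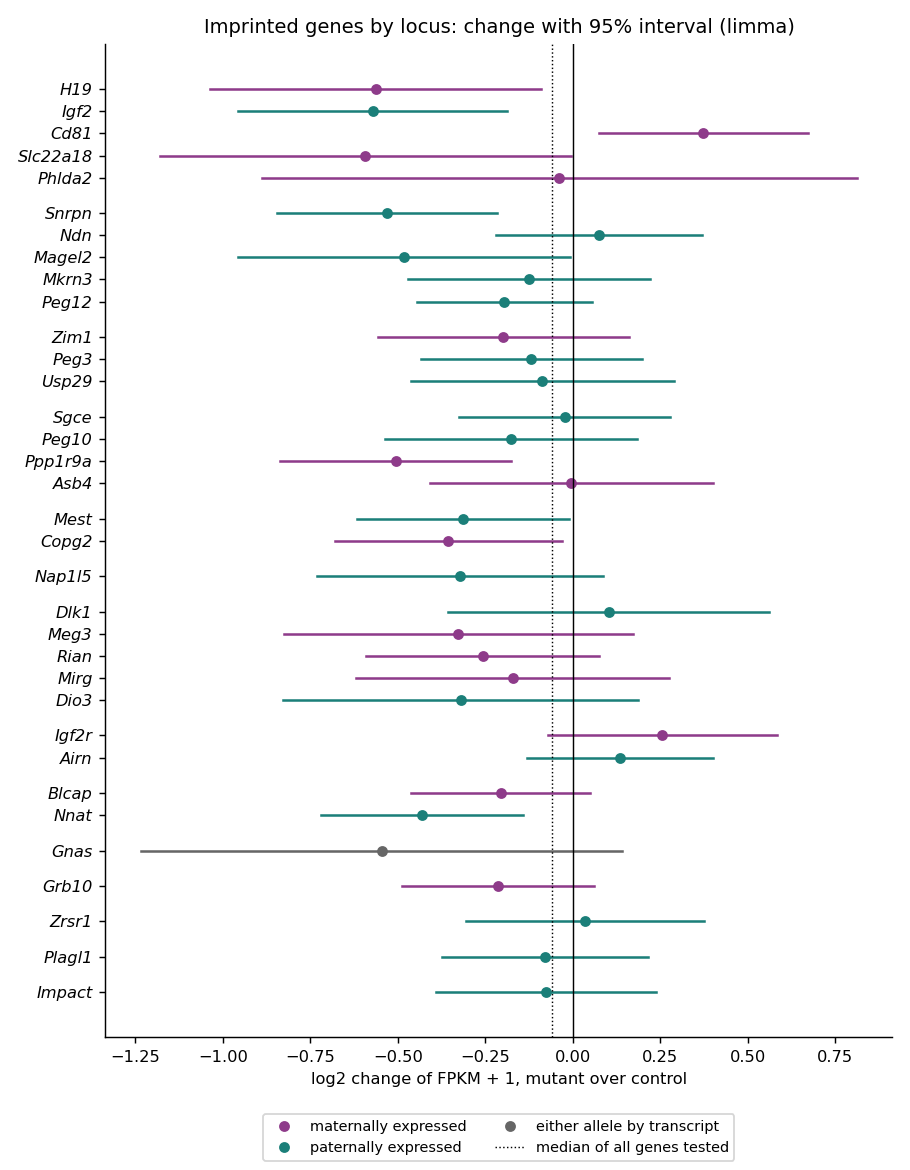
Log2 change of FPKM + 1, mutant over control, for the 34 imprinted genes tested, grouped by locus, with the 95% interval from limma. Colours give the textbook allele class, the solid line is 0 and the dotted line the median of all genes, -0.06. Most points lie left of the dotted line, and 0 of the 34 passed the adjusted threshold.

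Both the paternally and the maternally expressed genes had negative median log2 changes. Of 19 paternally expressed members tested, 0 passed with limma, 15 had a negative log2 change, and the median was -0.13. Of 14 maternally expressed members tested, 0 passed, 12 had a negative log2 change, and the median was -0.21. The paternal median was 0.085 above the maternal one, which is within the spread of the maternal median between libraries (SD 0.12) and above that of the paternal median (SD 0.045). The paternally expressed members took 0.520% and 0.447% of the reads in the mutants, against 0.499%, 0.533% and 0.570% in the controls, and these ranges overlapped. The maternally expressed members took 0.875% and 0.759% of the reads in the mutants, against 1.10%, 0.908% and 1.13% in the controls, so that both mutants lay below. The groups overlapped once H19 was taken out: the other maternal members took 0.491% and 0.405% in the mutants, against 0.490%, 0.479% and 0.510% in the controls. For 10 members imprinting is disputed or limited to some tissues (Grb10, Gnas, Blcap, Copg2, Ppp1r9a, Cd81, Asb4, Dio3, Slc22a18 and Ascl2). Of the 9 of these tested, the mutants lay below all controls for 5 and above for 1, where this held for 24.4% and 13.2% of all genes.

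The H19 and Igf2 domain lies at the distal end of chromosome 7. H19 (chromosome 7, 142575529 to 142578143, minus strand, GRCm38, GENCODE M21) was at 1619.7 and 1493 FPKM in the mutants, against 2580.3, 1807 and 2604 FPKM in the controls. Neither mutant reached the lowest control, and H19 averaged 0.668 of its control mean, but control replicate 2 lay nearer to the mutants than to the other controls. The log2 change was -0.56 (SE 0.20, 95% interval -1.04 to -0.09), short of the threshold with limma (adjusted p = 0.191). Igf2 (chromosome 7, 142650766 to 142666816, minus strand) encodes insulin-like growth factor 2, and its paternal copy shares enhancers with the maternal copy of H19. It was at 58.3 and 47.8 FPKM in the mutants, against 75.0, 68.6 and 95.5 FPKM in the controls. The groups again did not overlap, at 0.666 of the control mean and a log2 change of -0.57 (SE 0.16, limma adjusted p = 0.121). Of the exon bases of Igf2, 64.5% also belong to other annotated genes, chiefly Gm49394 and Igf2os, so its level depends on how such reads were counted. H19 and Igf2 were lower to the same degree, so their ratio did not separate the groups. Igf2 over H19 had a log2 ratio of -4.80 and -4.97 in the mutants, against -5.10, -4.72 and -4.77 in the controls (difference -0.02, exact permutation p = 0.9, two-sided).

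In the neighbouring Kcnq1ot1 domain of chromosome 7 the members went different ways. Cd81 (chromosome 7, 143052739 to 143067934) encodes a tetraspanin of the cell surface and is imprinted mainly in placenta. It was at 139.5 and 121 FPKM in the mutants, against 90.2, 109 and 101 FPKM in the controls. Both mutants were above all controls (log2 change 0.37, SE 0.13, limma adjusted p = 0.175), and it was the single member higher at an unadjusted p under 0.05. Slc22a18, which encodes a membrane transporter, was at 0.560 and 1.13 FPKM in the mutants, against 2.61, 1.37 and 1.42 FPKM in the controls, from 45 and 165 reads in all (log2 change -0.59, limma adjusted p = 0.26). Phlda2, a gene that restrains growth of the placenta, was at 2.49 and 0.456 FPKM in the mutants, against 1.86, 1.04 and 1.13 FPKM in the controls. The mutants of Phlda2 thus lay on either side of the controls, from 44 and 8 reads. Kcnq1ot1, the paternal RNA that silences this domain, was at 0.695 and 0.811 FPKM in the mutants, against 0.786, 1.07 and 0.864 FPKM in the controls. The log2 ratio of Kcnq1ot1 over Phlda2 was -1.84 and 0.83 in the mutants, against -1.24, 0.04 and -0.38 in the controls, and separated nothing (exact permutation p = 1, two-sided).

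The Dlk1 and Dio3 domain of chromosome 12 holds Dlk1, a paternally expressed inhibitor related to Notch ligands, and the maternal RNAs Meg3, Rian and Mirg, which code for no protein. Dlk1 (chromosome 12, 109452823 to 109463336) was at 291 and 206 FPKM in the mutants, against 187, 255 and 249 FPKM in the controls. Mutant replicate 1 was above every control and mutant replicate 2 lay among them. Meg3 (chromosome 12, 109541001 to 109571726) was at 51.9 and 30.6 FPKM in the mutants, against 45.7, 49.4 and 56.4 FPKM in the controls. Only mutant replicate 2 was low. The same library was the lowest of the 5 for Rian, at 32.7 FPKM against 42.3 to 48.2 FPKM in the other 4, and for Mirg, at 3.20 FPKM against 4.19 to 5.40 FPKM. In mutant replicate 1 Meg3, Rian and Mirg lay within the range of the controls. The log2 ratio of Dlk1 over Meg3 was 2.49 and 2.75 in the mutants, against 2.03, 2.37 and 2.14 in the controls. Both mutants were above all controls (difference 0.44, exact permutation p = 0.2, two-sided, adjusted p = 0.8 over 8 ratios). Dio3, which encodes an enzyme that inactivates thyroid hormone, was at 1.25 and 1.04 FPKM in the mutants, against 2.08, 1.09 and 1.97 FPKM in the controls, and the groups overlapped.

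The Snrpn domain of chromosome 7 is the mouse counterpart of the Prader-Willi region, and its members are paternally expressed and best known from neurons. Snrpn (chromosome 7, 59982495 to 60140219, minus strand) encodes SmN, an Sm protein of the spliceosome. It was at 4.56 and 3.91 FPKM in the mutants, against 6.10, 6.19 and 7.42 FPKM in the controls, from 287 and 756 reads. The groups did not overlap, with the mutants at 0.644 of the control mean (log2 change -0.53, SE 0.13, 95% interval -0.85 to -0.22, limma adjusted p = 0.0899). Of its exon bases, 34.1% also belong to other genes, chiefly Gm38393 and Snurf. Magel2, a ubiquitin ligase regulator, was at 2.01 and 1.08 FPKM in the mutants, against 2.37, 2.93 and 2.23 FPKM in the controls (log2 change -0.48, limma adjusted p = 0.256). Ndn, which encodes necdin, a growth suppressor of neurons, did not go with them, at 52.0 and 47.0 FPKM in the mutants, against 41.7, 52.2 and 47.4 FPKM in the controls. Peg12 and Mkrn3 had log2 changes of -0.20 and -0.13, and the mutants lay below all controls for Peg12.

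The proximal cluster of chromosome 7 showed little difference. Peg3, which encodes a zinc finger protein, was at 60.2 and 62.0 FPKM in the mutants, against 67.9, 57.2 and 75.6 FPKM in the controls. Zim1, its maternally expressed neighbour, was at 11.8 and 13.8 FPKM in the mutants, against 15.7, 12.3 and 16.9 FPKM in the controls. Peg3 over Zim1 had a log2 ratio of 2.35 and 2.17 in the mutants, against 2.11, 2.22 and 2.16 in the controls (exact permutation p = 0.4, two-sided). Usp29, which starts beside Peg3 on the other strand, had a log2 change of -0.09.

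On chromosome 6, Mest and Copg2 were both lower in both mutants. Mest (chromosome 6, 30723547 to 30748465), a hydrolase-like gene of mesoderm, was at 235 and 201 FPKM in the mutants, against 254, 297 and 261 FPKM in the controls. Copg2, a coat protein gene on the other strand, was at 13.4 and 12.1 FPKM in the mutants, against 19.4, 15.6 and 14.8 FPKM in the controls. Their log2 changes were -0.31 and -0.36 (limma adjusted p = 0.248 and 0.225). The genes overlap at their ends, over 23.1% of the exon bases of Mest and 17.8% of those of Copg2, and the use of strand in counting is not given. Mest over Copg2 had a log2 ratio of 4.13 and 4.06 in the mutants, against 3.71, 4.25 and 4.14 in the controls, so control replicate 1 stood below all others. Ppp1r9a, which encodes an actin-binding protein of neurons (neurabin), was at 4.92 and 4.09 FPKM in the mutants, against 7.71, 6.02 and 6.77 FPKM in the controls. The groups did not overlap (log2 change -0.51, SE 0.14, limma adjusted p = 0.113). Its neighbours differed less. Peg10, a gene derived from a retrotransposon, was at 27.9 and 25.5 FPKM in the mutants, against 25.2, 30.7 and 35.8 FPKM in the controls. Sgce, which encodes epsilon-sarcoglycan, was at 4.92 and 4.34 FPKM in the mutants, against 4.58, 4.39 and 5.21 FPKM in the controls. Peg10 over Sgce had a log2 ratio of 2.50 and 2.55 in the mutants, against 2.46, 2.81 and 2.78 in the controls (exact permutation p = 0.4, two-sided). Asb4 had a log2 change of -0.0047. Nap1l5, which lies apart from these genes on chromosome 6, had a log2 change of -0.32 (limma adjusted p = 0.376). It was at 0.684 of its control mean with both mutants below all controls, from 73 and 181 reads.

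The members on chromosomes 17 and 2 differed in direction. Igf2r (chromosome 17, 12682406 to 12769664), the receptor that clears Igf2, was at 75.0 and 70.7 FPKM in the mutants, against 55.6, 56.1 and 72.2 FPKM in the controls, so mutant replicate 2 lay below control replicate 3. Airn, the paternal RNA that runs across Igf2r from the other strand and silences it, was at 9.94 and 10.3 FPKM in the mutants, against 9.65, 8.34 and 9.50 FPKM in the controls. Their log2 changes were 0.26 and 0.13 (limma adjusted p = 0.378 and 0.591), and their log2 ratio did not separate the groups (exact permutation p = 0.5, two-sided). Nnat (chromosome 2, 157560078 to 157562522), which encodes neuronatin, a small membrane protein, was at 138 and 119 FPKM in the mutants, against 188, 171 and 161 FPKM in the controls. It was at 0.740 of the control mean with no overlap (log2 change -0.43, SE 0.12, 95% interval -0.72 to -0.14, limma adjusted p = 0.119). Blcap, whose intron holds Nnat, was at 16.9 and 14.5 FPKM in the mutants, against 18.08, 18.02 and 18.58 FPKM in the controls. The log2 ratio of Nnat over Blcap was 3.03 and 3.03 in the mutants, against 3.38, 3.25 and 3.11 in the controls (difference -0.22, exact permutation p = 0.2, two-sided, adjusted p = 0.8 over 8 ratios). Gnas, which encodes the stimulatory G protein alpha subunit, was at 5.89 and 3.86 FPKM in the mutants. The controls were at 5.75, 6.01 and 11.8 FPKM, where control replicate 3 stood apart. Of the exon bases of Gnas, 22% also belong to other genes, chiefly Gm20721 and Nespas, so its level depends on how such reads were counted.

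**Figure D3:**
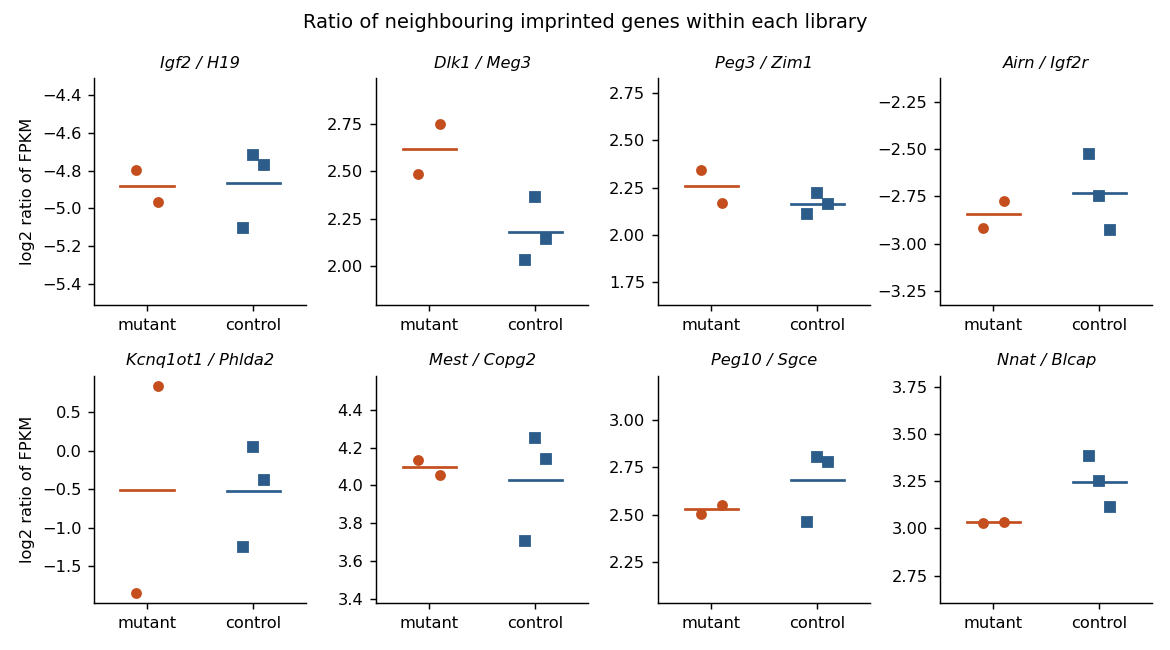
Log2 ratio of the FPKM of 8 pairs of neighbouring imprinted genes within each library, mutants on the left and controls on the right. Points are libraries and bars are means. The groups do not overlap for Dlk1 over Meg3, with mutants at 2.49 and 2.75, and for Nnat over Blcap, with mutants at 3.03 and 3.03, and they overlap for the other 6.

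The remaining members differed little in size. Grb10, an adaptor protein that restrains insulin and growth factor receptors, was at 191 and 175 FPKM in the mutants, against 231, 206 and 201 FPKM in the controls (log2 change -0.21, SE 0.12, limma adjusted p = 0.381). Both mutants were below all controls for Grb10. Plagl1, a zinc finger factor known to regulate other imprinted genes, was at 74.6 and 73.5 FPKM in the mutants, against 81.0, 68.5 and 86.5 FPKM in the controls. Impact and Zrsr1 had log2 changes of -0.08 and 0.03. Zrsr1 is a retrogene copy of Zrsr2 and its reads may be shared with it.

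The machinery that keeps and sets imprints showed no gene past the threshold. Of 10 genes tested that keep imprints, 0 passed with limma, 0 reached an unadjusted p under 0.05 and the median log2 change was 0.04. Trim28, the corepressor recruited by ZFP57, averaged 133 ± 10.3 FPKM in the mutants (SD, n = 2) and 129 ± 20.9 FPKM in the controls (SD, n = 3). Dnmt1, the maintenance DNA methyltransferase, averaged 46.4 ± 1.18 FPKM in the mutants (SD, n = 2) and 43.2 ± 1.72 FPKM in the controls (SD, n = 3). Uhrf1, its partner, and Zfp445, a second protector, had log2 changes of 0.05 and -0.21. Of 9 genes tested that set or erase imprints, 0 passed and 0 reached an unadjusted p under 0.05. Dnmt3a, Ezh2, Eed and Tdg among them had log2 changes of 0.05, -0.01, 0.12 and -0.17.

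In the growth axis that Igf2 acts in, 1 of 9 genes tested passed, Igf1, which is not imprinted and encodes insulin-like growth factor 1. Igf1 was at 25.9 and 24.4 FPKM in the mutants, against 53.0, 43.0 and 53.4 FPKM in the controls. It fell by 0.95 on the log2 scale (SE 0.13, limma adjusted p = 0.0163). Without mutant replicate 1 or 2 its adjusted p was 0.124 and 0.182, and it was 0.12 once the male share was in the fit. Igf1r and Insr, which encode receptors of the axis, had log2 changes of 0.13 and -0.15, and Irs1, which encodes a docking protein below them, was at 0.44 (limma adjusted p = 0.231). The RNA-binding proteins Igf2bp1, Igf2bp2 and Igf2bp3, which bind Igf2 transcripts, had log2 changes of -0.05, 0.07 and -0.11. M6pr, a second receptor of the sorting pathway of Igf2r, was at 0.07.

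Markers of several cell types moved with genotype. Over all genes tested, 0.989% were higher and 1.37% lower at the adjusted threshold. A fit without 1 mutant replicate holds 1 mutant library and lost most calls over all genes too. Such losses in the lists below are therefore not particular to them. The skeletal muscle list of 11 genes in the table summed to 85.03 and 179.9 FPKM in the mutants, against 489, 353 and 773 FPKM in the controls, and 7 of 9 genes tested were lower with limma, 1 without mutant replicate 1 and 4 without mutant replicate 2. The cartilage list summed to 36.99 and 25.2 FPKM in the mutants, against 97.6, 72.0 and 67.4 FPKM in the controls, with 3 of 5 lower, but 0 without either mutant replicate. The list for neurons and neural crest summed to 50.6 and 37.1 FPKM in the mutants, against 81.7, 63.5 and 87.7 FPKM in the controls, with 2 of 8 lower, but 0 without mutant replicate 1, mutant replicate 2, control replicate 1 or control replicate 3. The smooth muscle list summed to 184 and 144 FPKM in the mutants, against 406, 254 and 288 FPKM in the controls, with 1 of 4 lower, but 0 when either mutant was left out, 2 when control replicate 1 was and 3 when control replicate 2 was. The mesothelium list was at 74.7 and 106 FPKM in the mutants, against 15.9, 56.9 and 36.9 FPKM in the controls. Of its genes, 0 of 5 passed the threshold and 4 were higher at an unadjusted p under 0.05. In each of these fits 1 passed: without control replicate 2, voom, replicate block, TPM without Gm23935 and a filter on a mean of 1 FPKM. Msln went the other way, at 0.120 and 0.786 FPKM in the mutants, against 1.47, 1.10 and 0.753 FPKM in the controls. Its log2 change was -0.56 (limma adjusted p = 0.313). The epithelium list summed to 305 and 306 FPKM in the mutants, against 769, 394 and 294 FPKM in the controls, with 1 of 10 lower (Foxa1). That count was 0 when either mutant or control replicate 2 was left out, and 2 when control replicate 1 or 3 was, with 1 gene higher as well when control replicate 1 was. The lung mesenchyme list summed to 1179 and 971 FPKM in the mutants, against 1182, 1217 and 1554 FPKM in the controls, a sum made up mostly of the collagen genes Col1a1 and Col1a2. Of its 6 genes, 1 was higher with limma, Tbx4, a transcription factor of lung mesenchyme, at 49.9 and 43.3 FPKM in the mutants, against 18.04, 27.3 and 22.9 FPKM in the controls (log2 change 1.02, SE 0.17, limma adjusted p = 0.0343). That call was lost when either mutant or control replicate 3 was left out and with the male share in the fit. Tbx5 and Foxf1, 2 further transcription factors of the list, had both mutants above all controls. Their log2 changes were 0.57 and 0.80 (limma adjusted p = 0.136 and 0.129). The other 3 genes of the list went the other way. Col1a1, Col1a2 and Pdgfra had log2 changes of -0.37, -0.42 and -0.30 (limma adjusted p = 0.309, 0.23 and 0.479). Both mutants were below all controls for Col1a1 and Col1a2, and the groups overlapped for Pdgfra. Lists for endothelium, heart muscle, erythroid cells and macrophages overlapped between groups in their sums, with 0 genes past the threshold. With the male share in the fit, the genes past the threshold were 2 of 9 for skeletal muscle, 1 of 5 for cartilage and 0 of 8 for neurons and neural crest. With no filter on low values they were 2 of 11, 0 of 7 and 0 of 8 in the same order. None of the lists had a marker at 0 reads in all mutants or in all controls. Both mutants lay below all controls for H19, Igf2, Mest, Snrpn, Nnat and Ppp1r9a, as they did for the muscle, cartilage and neuron sums. These genes were picked for this after their values were seen. Among the mutants, these genes and the cartilage and neuron sums were lower in replicate 2, and the muscle sum was lower in replicate 1. The part of those cells in the members' values was not tested. In whole tissue, fewer cells of a type and less RNA per cell cannot be told apart.

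**Figure D4:**
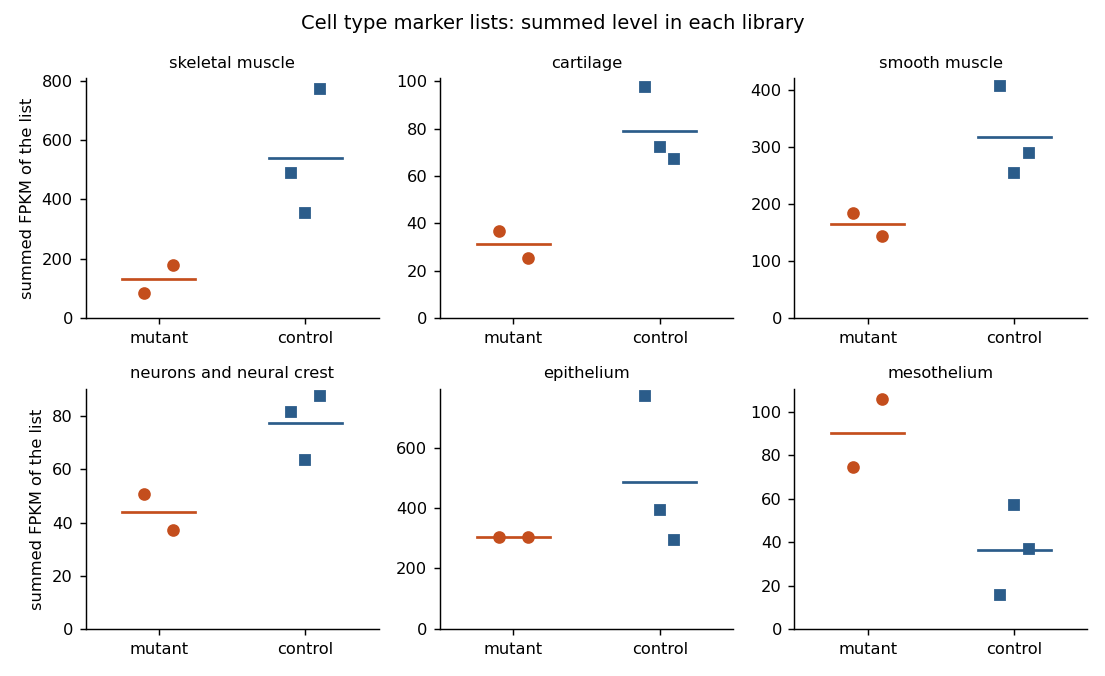
Summed FPKM of 6 cell type marker lists in each library, mutants on the left and controls on the right. Points are libraries and bars are means. Skeletal muscle genes sum to 85.03 and 179.9 FPKM in mutant libraries, against 353 to 773 FPKM in control libraries, and of these 6 lists the epithelium list alone overlaps between groups.

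The libraries also differed in sex make-up and in overall scale. Scale factors by median ratio of FPKM were 1.021 and 0.9258 in the mutants, against 1.027, 1.001 and 1.044 in the controls. With that scaling the median log2 change was 0.0057 over all genes and -0.13 over the members. The FPKM values given for each library were not rescaled. Xist, which silences the inactive X chromosome, was at 0.0673 and 0.289 FPKM in the mutants, against 57.3, 58.1 and 115 FPKM in the controls, while 4 Y-linked genes summed to 31.5 and 27.1 FPKM in the mutants, against 23.0, 18.8 and 4.49 FPKM in the controls. The controls thus held RNA of both sexes. Both mutants lay below all controls for Xist and above them for the Y-linked sum, so sex make-up cannot be fully told apart from genotype. Prmt5 itself was at 23.7 and 20.1 FPKM in the mutants, against 28.7, 26.4 and 25.8 FPKM in the controls (limma adjusted p = 0.234). An epithelial knockout, as the design text describes, would leave the gene in other cells of whole tissue. The labels do not settle which cells lost it, and the part of such cells in the Prmt5 level was not tested. When the male share, the Y-linked sum relative to the highest library, was added to the fit, the median log2 change of the members was -0.10, against -0.06 for all genes, and the lowest adjusted p of a member was 0.226. The share was 1 and 0.860 in the mutants, against 0.730, 0.598 and 0.142 in the controls, so this fit cannot fully separate sex from genotype.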

How the data were processed

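RNA was sequenced from 5 libraries of mouse airway tissue. An RNeasy kit gave the RNA and a SMARTER mRNA-Seq kit the libraries, per the labels' protocols, and a treatment text on adipocyte culture in the labels was not used. The authors deposited 1 table of FPKM values with 19699 entries, a unit taken from the name of the table. The submitters' processing notes name GRCm38 and mm10. Not given in the sources used here are the aligner, the counter, the annotation and whether strand was used. Reads were recovered from the FPKM steps: at a relative tolerance of 1e-10 all entries gave whole reads, 13965 with the exon length of GENCODE M21 and 5734 with a length from the steps, which may understate reads by a shared factor. Positions came from GENCODE M21 by symbol.

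The test was limma 3.58.1 (R 4.3.3) on log2(FPKM + 1), eBayes with a trend, two-sided, over 12838 genes that reached 1 FPKM in 2 or more libraries, adjusted by Benjamini and Hochberg, threshold 0.05. Ratios were tested by exact permutation over 10 splits. Loci join members less than 3 Mb apart. The steps were tested on simulated reads. Members, lists and tests were chosen with earlier results of these data known. The text gives every library for members of the 8 pairs and the 5 most abundant members. Cd81, Slc22a18, Snrpn, Magel2, Ndn, Ppp1r9a, Plagl1, Gnas, Dio3, Rian, Mirg and the genes named outside the lists' first 4 were singled out after their values were seen. Alternatives were other pseudocounts, filters, scalings, voom, a male share (4 Y-linked genes), a replicate block and leaving out each library. Same-numbered libraries did not deviate together (correlation -0.0671 for number 1 and 0.0203 for number 2).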

Additional observations from a re-analysis of the deposited data

How the results depend on the processing

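In all 17 alternative fits 0 members passed the adjusted threshold, as also among members with 50 or more reads (added after seeing the data), and the lowest adjusted p of a member was 0.0615. The median of the members lay below that of all genes in all 18 fits, by 0.04 to 0.16 on the log2 scale. All fits draw on the same 5 libraries and several repeat the same log2 changes, so they are not separate checks. The count over all genes, 303, was 69 with no filter, 67 with TPM, 491 with voom and 55 with the male share, and 4 to 284 leaving out 1 library. TPM moved the median of all genes to -0.59. The paternal median, -0.13, was -0.072 with median ratio scaling, -0.69 with TPM, -0.22 with TPM without Gm23935, -0.046 with the male share, -0.061 with the replicate block and -0.18 to -0.061 leaving out 1 library. The maternal median, -0.21, was -0.78 with TPM and -0.40 to -0.079 leaving out 1 library. The paternal median was above the maternal in 17 of 18 fits, which again are not separate checks. The cause of these shifts was not tested.

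The replicate number marks no shared litter or batch in the labels, and the block, which here gives the same estimates as leaving out control replicate 3, changed no member's call: the count over all genes was 259 and the lowest adjusted p of a member 0.175.

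The fits with no filter, with a filter on a mean of 1 FPKM and without the trend leave each log2 change as in the main fit. The replicate block repeats the log2 changes found without control replicate 3. Some of the values counted next were thus unchanged by construction. Of 578 member values under alternatives, 538 kept their direction and 40, from 18 members, turned it. With TPM this was so for Dlk1 (-0.47), Ndn (-0.49), Airn (-0.40), Zrsr1 (-0.45), Igf2r (-0.31) and Cd81 (-0.20), and with TPM without Gm23935 for Zrsr1 (-0.023). With the male share it was so for Peg3 (0.063), Plagl1 (0.046), Peg10 (0.11), Sgce (0.083), Impact (0.16), Asb4 (0.16) and Gnas (0.067). With quantile normalization it was so for Usp29 (0.048), Mkrn3 (0.003), Sgce (0.067), Phlda2 (0.10) and Asb4 (0.076). Sgce and Asb4 turned to 0.038 and 0.060 with median ratio scaling, to 0.046 and 0.067 with voom, and to 0.036 and 0.11 with the replicate block, where Impact was at 0.013. Leaving out 1 library, the ranges were -0.15 to 0.35 for Dlk1, -0.0092 to 0.15 for Ndn, -0.098 to 0.051 for Sgce, -0.18 to 0.013 for Impact, -0.052 to 0.087 for Zrsr1, -0.70 to 0.044 for Meg3, -0.46 to 0.11 for Mirg, -0.67 to 0.59 for Phlda2 and -0.18 to 0.17 for Asb4. The ratio differences ran from -0.14 to 0.068 for Igf2 over H19, from -1.31 to 1.36 for Kcnq1ot1 over Phlda2 and from -0.098 to 0.17 for Mest over Copg2, and with a pseudocount of 0.1 Kcnq1ot1 over Phlda2 was at -0.012. The call of Igf1 was also lost with no filter and with TPM (adjusted p = 0.0689 and 0.662, limma). Low members such as Phlda2, Ascl2 and Slc22a18, with few reads, are limited by depth.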

Other observations

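Of 25 further imprinted genes outside the list of members, 20 were tested and 0 passed with limma over all genes. At an unadjusted p under 0.05, 8 were lower and 2 higher, where 12.3% of all genes were lower and 6.53% higher, and the median log2 change was -0.23, against -0.06 over all genes. The counts were 5 lower and 1 higher without mutant replicate 1, 3 lower and 0 higher without mutant replicate 2, 4 and 0 without control replicate 3, with the male share in the fit or with the replicate block, and 0 and 0 with TPM. Cdkn1c, a maternally expressed inhibitor of cyclin-dependent kinases in the Kcnq1ot1 domain, was at 258 and 207 FPKM in the mutants, against 347, 334 and 369 FPKM in the controls. It had the smallest adjusted p of the list (log2 change -0.59, SE 0.13, limma adjusted p = 0.0679), and its groups did not overlap. Dcn, which encodes the matrix protein decorin, was at 170.4 and 180.3 FPKM in the mutants, against 205, 228 and 274 FPKM in the controls (log2 change -0.41, limma adjusted p = 0.181). Nap1l4 and Slc38a4 were near the controls, at log2 changes of 0.01 and -0.04.

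The 2 higher genes were Tssc4 and Mcts2, at log2 changes of 0.28 and 0.30. Tssc4 was at 23.5 and 24.7 FPKM in the mutants, against 19.2, 20.7 and 19.2 FPKM in the controls. It lies in the Kcnq1ot1 domain of chromosome 7, as Cd81 does. These genes were singled out after their values were seen.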
